A study of Mus musculus with 5 samples.

Results

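The estrogen-related receptors (ERRα, ERRβ and ERRγ, encoded by Esrra, Esrrb and Esrrg) and 7 of their main coactivators and corepressors were followed in ribosome-bound RNA of mouse midbrain, with and without deletion of Esrrg. The 10 genes were chosen by symbol, from the 53700 gene rows of the deposited table, with no measured value in the rule. They are the 3 receptors, the PGC-1 coactivators (Ppargc1a, Ppargc1b and Pprc1), the p160 coactivators Ncoa1 and Ncoa2, and the corepressors Nrip1 and Ncor1. All 10 had counts in every library, from 90 raw counts (Ppargc1b in WT replicate 4) to 3678 (Esrra in WT replicate 4), and all 10 received an adjusted p.

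RNA was purified by BAC-TRAP, in which an EGFP tag on the ribosomal protein L10a lets an antibody pull down ribosomes and the mRNAs on them from cells that express Cre. All mice were C57BL/6, carried the L10a transgene and received AAV:THCre, a virus that places Cre under a tyrosine hydroxylase promoter to direct the tag to dopaminergic (DAergic) neurons. All were 4 months old, with tissue collected 1 month after injection of the virus. The 3 Esrrg WT libraries (replicates 2, 3 and 4) came from mice with intact Esrrg alleles, and the 2 Esrrg Flox libraries (replicates 2 and 4) from mice homozygous for a floxed exon 2 of Esrrg, which Cre removes. Each library is a pool of animals, so that p-values measure the spread between pools. Cells that the virus missed keep an intact Esrrg but also lack the tag. The libraries nevertheless held RNA typical of other cell types, as the marker sums below show. Counts of Esrrg may therefore include reads from untagged cells, and their part was not tested.

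The ERRs are orphan nuclear receptors, transcription factors with a zinc finger DNA-binding domain whose activity does not depend on a known natural hormone. They bind a shared DNA element and activate genes of the tricarboxylic acid cycle, the respiratory chain and fat oxidation, and PGC-1 proteins, rather than a ligand, switch them on. Corepressors such as RIP140 (the product of Nrip1) and NCoR1 counter this activation. ERRγ is known for high levels in tissues with a large energy demand, including heart, muscle and neurons.

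The floxed exon is shown first, because it sets what a count of Esrrg reads can tell. Esrrg (ENSMUSG00000026610.14) lies on the plus strand at chr1:187608791-188214885 in the annotation (GENCODE M21, build GRCm38). There, exon 2 of the 7-exon transcript NM_011935.3 spans chr1:188043334-188043749. Its 416 bases make up 7.86% of the 5293-base transcript and 30.3% of the 1374 coding bases. The last 300 bases of the exon, chr1:188043450-188043749, are printed from the plus strand, with the codons of the 4 cysteines that hold the zinc of the first DNA-binding finger in capitals.

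Esrrg exon 2, 3′ end: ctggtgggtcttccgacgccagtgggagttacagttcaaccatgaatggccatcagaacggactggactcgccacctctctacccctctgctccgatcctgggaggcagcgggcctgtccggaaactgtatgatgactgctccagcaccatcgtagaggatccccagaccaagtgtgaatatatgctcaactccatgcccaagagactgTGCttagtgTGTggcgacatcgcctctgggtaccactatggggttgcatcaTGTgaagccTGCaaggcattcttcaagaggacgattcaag

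Of 5 annotated Esrrg transcripts, 3 hold this whole exon. In 2 of them (8 exons each) it is exon 3 and also contains the start codon. The remaining exons still give reads after recombination. Counts of single exons were not used here, and the gene totals that follow do not measure the deletion itself.

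Differences between Flox and WT were tested with DESeq2 on the raw counts, and a gene was called where its p, adjusted over all genes by the Benjamini-Hochberg method, was under 0.05. Among 15228 genes with an adjusted p, 8.58% were called, 4.33% higher and 4.25% lower in Flox. None of the 10 genes was called (0 of 10 in DESeq2 and 0 of 10 in edgeR's quasi-likelihood test), while 4 of 10 had an unadjusted p under 0.05 in each of these tests, against 20.7% of the tested genes in DESeq2. Those 4 were Esrrg and Esrrb, with lower values in Flox, and Ppargc1b and Ncor1, with higher values. Over all genes, edgeR called 236 of 16627 and gave 3816 an unadjusted p under 0.05. With so few calls, 0 of 10 in edgeR says little about these genes. Both Flox libraries lay below all WT libraries in 4 of the 10 genes, against 22.9% of all tested genes, and above them in 2, against 19.9%. Values are given as normalized counts, which are counts divided by the DESeq2 size factor of the library, and fold changes as log2 of Flox over WT.

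Among the receptors, all 3 had lower normalized counts in both Flox libraries than in any WT library. Esrrg had 1763, 1643 and 1726 normalized counts in WT replicates 2, 3 and 4, and 1504 and 1170 in Flox replicates 2 and 4. The WT libraries lay close together, while the Flox libraries differed from each other by more than the WT libraries did. The Flox mean of 1337 ± 236 (SD, n = 2) differed by -21.8% from the WT mean of 1710 ± 61.4 (SD, n = 3). On the log2 scale this was -0.35 (SE 0.13, 95% interval -0.62 to -0.09), which missed the threshold (DESeq2 adjusted p = 0.0734). The size depended on Flox replicate 4. Without it the log2 fold change was -0.19 (adjusted p = 0.873), and without Flox replicate 2 it was -0.55 and Esrrg was called (adjusted p = 0.00567), these being the highest and lowest adjusted p over 11 alternatives. With either Flox library left out, the lone Flox library is assumed to vary like the WT libraries, here and in the later values of this kind.

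Esrrb (ENSMUSG00000021255.18, chr12:86361117-86521628, plus strand) encodes ERRβ, a receptor best known from pluripotent cells, placenta, inner ear and retina. It had 210.7, 203.8 and 200.8 normalized counts in WT replicates 2, 3 and 4, and 140.3 and 137.2 in Flox replicates 2 and 4. The groups did not overlap. Their SDs, 5.08 in WT and 2.17 in Flox, were below what counting error alone gives at such counts, so they understate the spread between pools. Its log2 fold change, -0.56 (SE 0.21, 95% interval -0.97 to -0.16), was the most negative of the 10 genes and corresponds to 0.677 times the WT level. It was not called (DESeq2 adjusted p = 0.0646). With genes of low count removed before the fit Esrrb was called (adjusted p = 0.0481), the lowest of the 9 alternatives that gave one, and the highest was 0.494. Over all 11 alternatives the fold change stayed between -0.60 and -0.55.

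Esrra (ENSMUSG00000024955.16, chr19:6910977-6921813, minus strand) encodes ERRα, the receptor that works with PGC-1α on respiratory chain genes in most tissues. It had 2991, 2948 and 3534 normalized counts in WT replicates 2, 3 and 4, and 2614 and 2881 in Flox replicates 2 and 4. The groups were adjacent rather than apart, since Flox replicate 4 lay just under the lower WT libraries and WT replicate 4 stood above the rest. Flox over WT was -0.20 on the log2 scale (SE 0.12, 95% interval -0.44 to 0.04, DESeq2 adjusted p = 0.350). Esrra shares 91 exonic bases (2.07% of its exon length) with Mir6990 on the same strand and 73 (1.66%) with Trmt112 on the opposite strand. Strand was not used in counting, so reads there could fit either gene and may have been set aside as ambiguous.

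**Figure D1:**
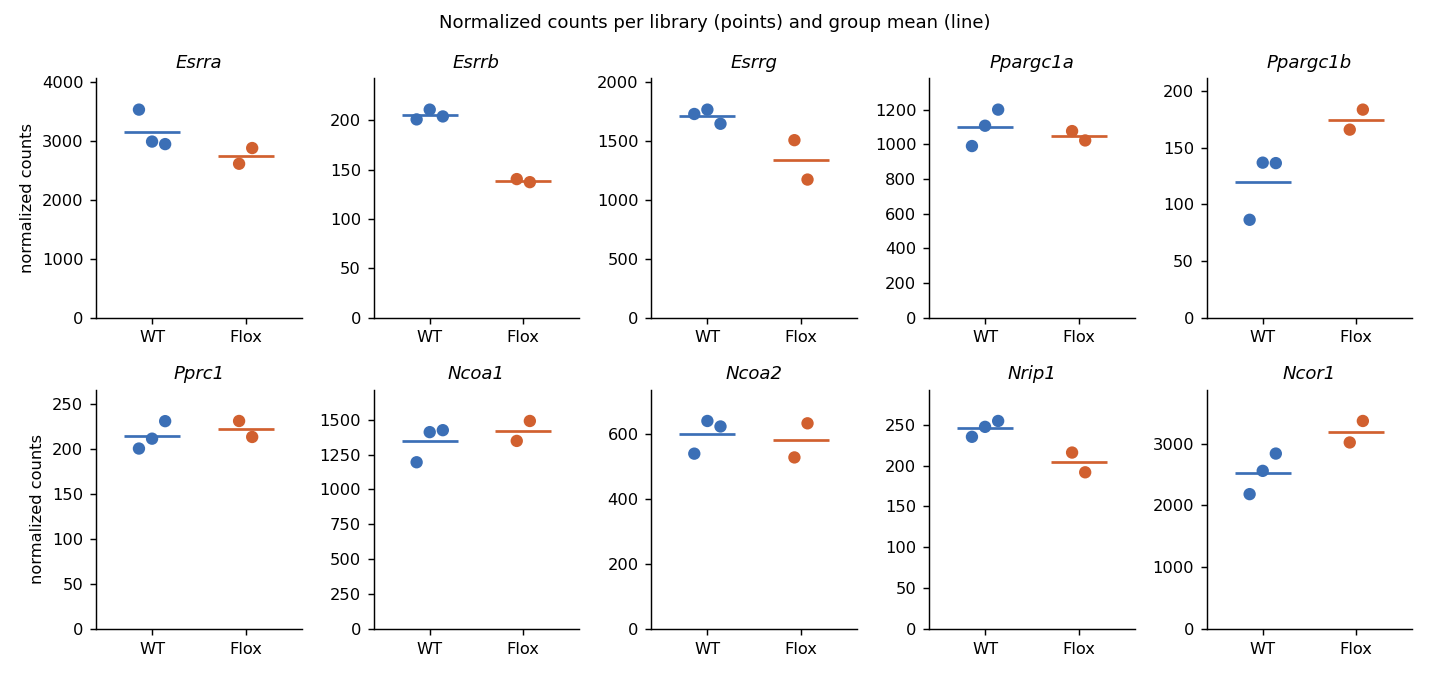
Normalized counts (y axis, from 0, a separate scale for each gene) of the 10 genes in the 3 WT (blue) and 2 Flox (orange) libraries, with the horizontal line at each group mean. Both Flox points lie below all WT points for Esrra, Esrrb, Esrrg and Nrip1 and above them for Ppargc1b and Ncor1.

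The summed level of the receptors can be compared per length, in CPM (counts scaled to a common total per library) per kilobase of exon. The 3 receptors together had 46.0, 45.1 and 50.3 in WT replicates 2, 3 and 4, and 39.2 and 38.2 in Flox replicates 2 and 4, so that the Flox libraries lay below all WT libraries. Esrrg took 28.4%, 27.3% and 24.9% of it in WT and 28.1% and 21.7% in Flox, and these ranges overlapped. Esrrb took 2.97% to 3.48% in WT and 2.61% to 2.69% in Flox, without overlap. Esrra made up the rest, 68.1% to 72.1% in WT and 69.2% to 75.7% in Flox.

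The PGC-1 coactivators differed among themselves. Ppargc1a encodes PGC-1α, the inducible coactivator of mitochondrial biogenesis, and had 1108, 1201 and 990.6 normalized counts in WT replicates 2, 3 and 4, and 1077 and 1023 in Flox replicates 2 and 4. Both Flox values lay inside the WT range, and the log2 fold change was -0.07 with a 95% interval of -0.32 to 0.19 (DESeq2 adjusted p = 0.848).

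Ppargc1b encodes PGC-1β, a related coactivator that maintains basal mitochondrial gene expression. It had 137.0, 136.6 and 86.5 normalized counts in WT replicates 2, 3 and 4, and 166.2 and 183.9 in Flox replicates 2 and 4. Both Flox libraries lay above all WT libraries, and WT replicate 4 lay well below the other WT libraries. At 0.55 (SE 0.26, 95% interval 0.03 to 1.06) its log2 fold change was the highest of the 10 genes, and it was not called (DESeq2 adjusted p = 0.205). Without WT replicate 4 the value was 0.35. The ratio of Ppargc1b to Ppargc1a per length was 0.204, 0.188 and 0.144 in WT and 0.255 and 0.297 in Flox, again without overlap. The ratio is given as a description, with no test.

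Pprc1 encodes the PGC-1-related coactivator PRC, which is induced as cells enter growth. Its values were 211.8, 231.3 and 200.8 normalized counts in WT replicates 2, 3 and 4, and 231.5 and 213.7 in Flox replicates 2 and 4. The groups overlapped, with a log2 fold change of 0.05 (95% interval -0.33 to 0.43, DESeq2 adjusted p = 0.928). Pprc1 shares 177 exonic bases (2.82%) with Ldb1 on the opposite strand, the largest such overlap of the 10 genes. The summed level per length of the 3 PGC-1 genes was 10.9, 11.8 and 9.19 in WT and 11.01 and 10.4 in Flox, and the groups overlapped.

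The p160 coactivators bind the ligand-binding domain of many nuclear receptors and recruit histone acetyltransferases. Ncoa1 (SRC-1) had 1411, 1425 and 1195 normalized counts in WT replicates 2, 3 and 4, and 1348 and 1491 in Flox replicates 2 and 4. Ncoa2 (TIF2) had 639.5, 622.6 and 539.0 in WT and 527.4 and 632.3 in Flox. The groups overlapped for both genes. The log2 fold change was 0.08 for Ncoa1 (95% interval -0.17 to 0.33, DESeq2 adjusted p = 0.811) and -0.05 for Ncoa2 (95% interval -0.35 to 0.25, DESeq2 adjusted p = 0.915).

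The corepressors pointed in opposite directions. Nrip1 encodes RIP140, which restrains oxidative genes in muscle and fat, and had 247.6, 254.8 and 235.4 normalized counts in WT replicates 2, 3 and 4, and 216.1 and 191.9 in Flox replicates 2 and 4. The Flox libraries lay below all WT libraries, with a log2 fold change of -0.27 (SE 0.19, 95% interval -0.64 to 0.10, DESeq2 adjusted p = 0.457).

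Ncor1 encodes NCoR1, the scaffold of a complex with the histone deacetylase HDAC3. It had 2560, 2840 and 2183 normalized counts in WT replicates 2, 3 and 4, and 3020 and 3368 in Flox replicates 2 and 4. Both Flox libraries lay above all WT libraries, with a spread inside each group. Against a WT mean of 2528 ± 330 (SD, n = 3), Flox had 3194 ± 246 (SD, n = 2), a log2 fold change of 0.34 (SE 0.13, 95% interval 0.08 to 0.60). Ncor1 was not called (DESeq2 adjusted p = 0.0893), and over 11 alternatives the adjusted p ran from 0.0616 to 0.784.

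**Figure D2:**
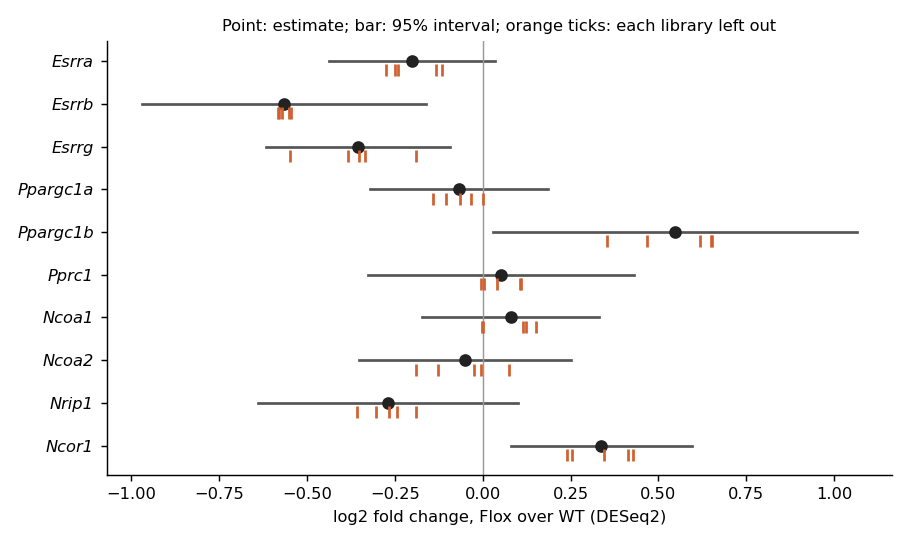
DESeq2 log2 fold change of Flox over WT (x axis) for the 10 genes, with the point as the estimate, the bar as its 95% interval, and orange ticks for the estimates with each of the 5 libraries left out in turn. The ticks of Esrrb stay close together, those of Esrrg run from -0.55 to -0.19, and the intervals of Esrrb, Esrrg, Ppargc1b and Ncor1 do not reach 0 although no adjusted p is under 0.05.

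Markers of other cells differed between the libraries too, and these values stand beside the results above. The DAergic genes Th and Slc6a3 were abundant in every library, with 9849 to 12810 and 10840 to 11300 normalized counts in WT, and 10220 to 10950 and 9593 to 9775 in Flox. The 11 DAergic markers summed to 2473 to 2829 CPM in WT and 2453 to 2494 in Flox. Of these, 1 of 11 was called, lower, against 8.58% called among all genes and 4.25% called lower. The set was not uniform, since both Flox libraries lay below all WT libraries in 4 markers and above them in 2. The 4 GABAergic markers summed to 1222 to 1280 CPM in WT and 1036 to 1076 in Flox. Of them 1 of 4 was called, lower, beside the same shares over all genes, and 4 genes are too few to compare. In these bulk samples, fewer cells of a type and less RNA per cell cannot be told apart. The 3 glutamatergic, 7 astrocyte and 6 oligodendrocyte markers had 0 calls in DESeq2 and 0 at an unadjusted p under 0.05. Their sums were 221 to 339 and 216 to 281 CPM for glutamatergic markers, 1718 to 2611 and 1733 to 2248 for astrocytes, and 4845 to 6925 and 5435 to 6274 for oligodendrocytes, in WT and Flox in that order. The glutamatergic marker Slc17a7 differed widely between libraries of the same group. It had 2974, 2772 and 390.1 normalized counts in WT replicates 2, 3 and 4, and 2303 and 800.3 in Flox replicates 2 and 4. Slc17a6 ran only from 3526 to 4301, and the cause was not tested. No marker was at 0 in all libraries.

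Microglial markers were higher in Flox. Of 12, 10 were called, all higher, against 4.33% called higher among all genes. The 12 markers summed to 112, 136 and 69.6 CPM in WT replicates 2, 3 and 4, and 237 and 491 in Flox replicates 2 and 4. Endothelial markers, of which 3 of 6 were called higher (against the same 4.33%), summed to 6.35, 10.4 and 4.98 CPM in WT and 11.5 and 28.3 in Flox. Ncor1 had the same order of libraries as both sums, from WT replicate 4 at the lowest through WT replicates 2 and 3 to Flox replicates 2 and 4 at the highest. Ppargc1b had that order except for WT replicates 2 and 3, which were nearly equal. Esrrg had the reverse of that order except for WT replicates 2 and 4, which were close (1763 and 1726 normalized counts). How often such orders occur over all genes was not counted. The part of these cells in the values of the 10 genes was not tested.

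Levels of the 10 genes spanned a wide range in WT. Per length, Esrra had the highest level, 33.0 ± 2.88 CPM per kilobase (SD, n = 3), followed by Esrrg with 12.6 ± 0.389, and no library of Esrrg reached the level of Esrra. Ncor1 (9.06 ± 1.32), Ppargc1a (7.66 ± 0.855) and Ncoa1 (7.19 ± 0.793) came next, below Esrrg in every WT library. The ranges of neighbours among these 3 overlapped between WT libraries, although within each WT library Ncor1 was above Ppargc1a and Ppargc1a above Ncoa1. Ncoa2 (1.76 ± 0.182), Pprc1 (1.57 ± 0.137), Esrrb (1.56 ± 0.0544), Ppargc1b (1.38 ± 0.352) and Nrip1 (0.985 ± 0.0548) formed a lower range in which each neighbour overlapped the next. With the longest transcript in place of the summed exon length, Ppargc1a and Ncoa1 changed places, as did Pprc1 and Esrrb.

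**Figure D3:**
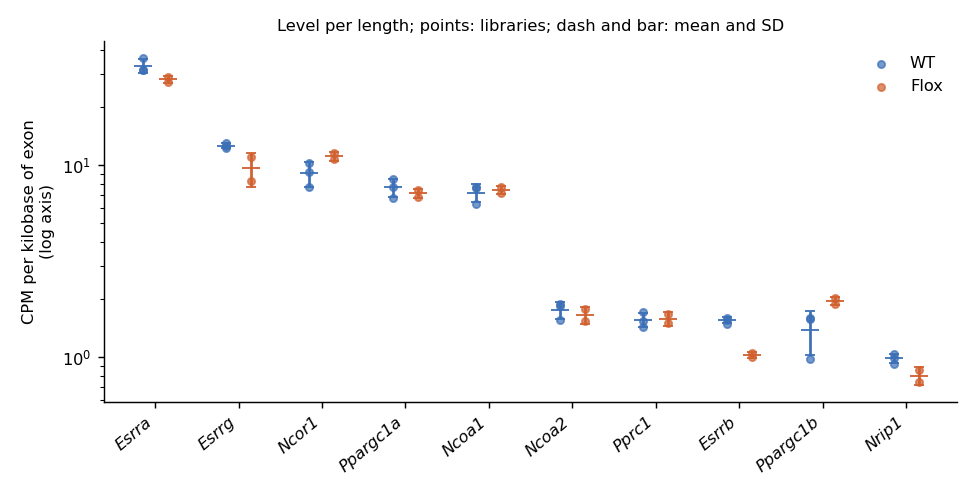
Level per length (y axis, CPM per kilobase of exon, log axis) of the 10 genes, ordered by the WT mean, with points for the libraries of WT (blue) and Flox (orange) and a dash and bar for the mean and SD. Esrra at 33.0 and Esrrg at 12.6 lead, and the 5 genes on the right lie between 0.985 and 1.76 in WT.

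Within the family of 49 nuclear receptor genes, Esrra and Esrrg were among the most abundant in WT. Thra, the thyroid hormone receptor α gene, ranked first with 166.4 ± 5.50 CPM per kilobase (SD, n = 3). Esrra was second, Rxrb (31.0 ± 1.81), Nr1h2 (28.5 ± 1.02) and Nr1d2 (20.6 ± 0.569) followed, and Esrrg was seventh, next to the DAergic receptor Nr4a2 (11.1 ± 1.21). Esrra and Rxrb overlapped between libraries. Esrrb ranked 25.

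The family also shows how the receptors compare with their relatives after the deletion. Of 35 nuclear receptor genes with an adjusted p, 2 were called (5.71%), both lower, against 8.58% called among all genes and 4.25% called lower. The median log2 fold change was -0.09, against -0.01 over all genes. Nr1h2, which encodes the oxysterol receptor LXRβ, had 2087, 1976 and 2191 normalized counts in WT replicates 2, 3 and 4, and 1634 and 1224 in Flox replicates 2 and 4 (a log2 fold change of -0.54 with an SE of 0.14, and an adjusted p of 0.00379 in DESeq2). Nr2f6, an orphan receptor of the COUP-TF group, had 522.6, 617.5 and 633.2 in WT and 437.1 and 343.0 in Flox (a log2 fold change of -0.60 with an SE of 0.17, and an adjusted p of 0.00941 in DESeq2). In both genes the groups did not overlap and Flox replicate 4 was the lowest library. Neither was called by edgeR or without Flox replicate 4, where the log2 fold change of Nr1h2 was -0.35 (adjusted p = 0.378). Nr1h2 was also not called without WT replicate 2, nor Nr2f6 without WT replicate 3 or with the replicate block.

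Among 22 further cofactors and modifiers of the ERR and PGC-1 pathway, 20 had an adjusted p, with a list median of -0.04. Of these, 3 were called (15%), 1 higher and 2 lower, against 8.58% called among all genes. Carm1, an arginine methyltransferase that works with p160 coactivators and methylates PGC-1α, fell from 525.7, 489.1 and 559.2 normalized counts in WT replicates 2, 3 and 4 to 318.0 and 221.7 in Flox replicates 2 and 4. Its log2 fold change was -0.96 (SE 0.18, DESeq2 adjusted p = 4.57e-05). It was called in 10 of 11 alternatives, edgeR included, and missed without Flox replicate 4 (log2 fold change -0.73, adjusted p = 0.0637).

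Kat2a, which encodes the acetyltransferase GCN5 that inhibits PGC-1α, fell from 1228, 1153 and 1260 to 956.8 and 895.7 normalized counts (a log2 fold change of -0.39 with an SE of 0.12, and an adjusted p of 0.0195 in DESeq2). Its groups did not overlap. It was called in 4 of 11 alternatives and in none that left out a library.

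Crebbp, the acetyltransferase CBP that p160 coactivators recruit, rose from 743.8, 848.9 and 620.7 to 1049 and 1254 normalized counts (a log2 fold change of 0.64 with an SE of 0.16, and an adjusted p of 0.00254 in DESeq2). Its libraries had the same order as the microglial and endothelial marker sums. Of the called genes that were lower, Carm1, Kat2a and Nr1h2 above and Mapk14, Idh3g, Idh3a and Cplx1 below had the reverse order. Nr2f6, Atp5b and Nefh did not. The share of all genes with either order was not counted. All of these lower genes had both Flox libraries below all WT libraries, which by itself sets part of the order. The part of these cells in these values was not tested. Crebbp was not called by edgeR (adjusted p = 0.0558) or without Flox replicate 4 (adjusted p = 0.336, the highest of its alternatives).

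The partner factors were 22 genes for transcription factors that PGC-1 proteins dock on and for regulators of PGC-1α, some of them nuclear receptors counted above. The 19 with an adjusted p had a median log2 fold change of -0.16. Of them 1 was called (5.26%), against 8.58% called among all genes. This was Mapk14, the p38α kinase that phosphorylates and activates PGC-1α, which fell from 1150, 1142 and 1224 normalized counts in WT replicates 2, 3 and 4 to 903.0 and 855.9 in Flox replicates 2 and 4 (a log2 fold change of -0.41 with an SE of 0.12, and an adjusted p of 0.0109 in DESeq2). The groups did not overlap. Mapk14 was called in 6 of 11 alternatives, and not by edgeR (adjusted p = 0.0586), with the replicate block, or without WT replicate 2, WT replicate 3 or Flox replicate 4 (adjusted p = 0.411).

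The last list held 22 genes that ERRs or PGC-1α are known to drive, in metabolism and at the synapse. Several of them were named by the study from these mice, so that the list is not independent evidence of its direction. Of 21 with an adjusted p (Cpt1b had no counts), 6 were called (28.6%), all lower in Flox, against 8.58% called among all genes and 4.25% called lower. The median log2 fold change was -0.16, against -0.01 over all genes. Without Flox replicate 4 there was 1 call, and edgeR gave 2.

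The called genes of oxidative metabolism described here are Idh3g, Idh3a and Atp5b. Idh3g, a subunit of isocitrate dehydrogenase, fell from 3484, 3225 and 4005 normalized counts in WT replicates 2, 3 and 4 to 2539 and 2168 in Flox replicates 2 and 4 (a log2 fold change of -0.60 with an SE of 0.13, and an adjusted p of 0.000299 in DESeq2). It was called in 10 of 11 alternatives, edgeR included, and missed without Flox replicate 4 (log2 fold change -0.50, adjusted p = 0.095). Idh3a, another subunit of this enzyme, fell by 0.41 on the log2 scale (DESeq2 adjusted p = 0.00378). Atp5b, the catalytic subunit of ATP synthase, fell by 0.51 (DESeq2 adjusted p = 0.00228). Without Flox replicate 4 the log2 fold change of Atp5b was -0.33 (adjusted p = 0.237). Neither Idh3a nor Atp5b was called without Flox replicate 4, without WT replicate 2 or by edgeR (adjusted p = 0.0563 and 0.0581). In these 3 genes every Flox library lay below every WT library, and Flox replicate 4 was the lowest.

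Nefh, the heavy neurofilament chain, and Cplx1, a complexin of the vesicle release machinery, are the called neuronal genes. Nefh had 6789, 6712 and 5191 normalized counts in WT replicates 2, 3 and 4, and 5120 and 3489 in Flox replicates 2 and 4 (a log2 fold change of -0.53 with an SE of 0.17, and an adjusted p of 0.0241 in DESeq2), and its Flox replicate 2 nearly met WT replicate 4. Nefh had a log2 fold change of -0.29 without Flox replicate 4 (adjusted p = 0.711), and it was also not called without WT replicate 2 or 3 or by edgeR (adjusted p = 0.113). Cplx1 had 44480, 42740 and 46190 in WT and 35320 and 35010 in Flox (a log2 fold change of -0.34 with an SE of 0.09, and an adjusted p of 0.00505 in DESeq2), with groups that were clearly apart, and it was not called without WT replicate 2 or Flox replicate 4 or by edgeR (adjusted p = 0.0581). The remaining 15 tested genes of the list had log2 fold changes from -0.32 to 0.24 and none passed.

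**Figure D4:**
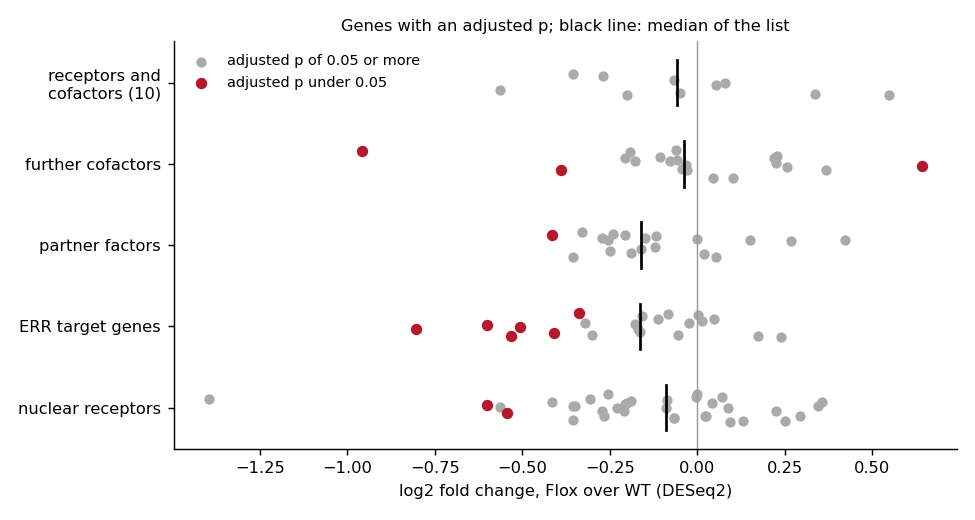
DESeq2 log2 fold change of Flox over WT (x axis) for every gene with an adjusted p in the 10 receptor and cofactor genes and in the 4 wider lists, with called genes in red and the black line at each list's median; heights within a list are random. No gene of the top group is red, and all 6 red genes of the target list lie below 0.

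Promoters of these genes were searched for the ERR response element, TCAAGGTCA, on both strands of RefSeq windows from 250 bases before to 50 after each start (GRCm38.p6). Of all 32851 windows, 0.423% held it. It was in 0 of 14 windows of the 8 receptor and cofactor genes that matched the table, while Ppargc1b and Ncoa2 did not match. The shorter core AAGGTCA, which the longer motif contains, was in 4.72% of all windows and in 0 of these 14. At shares this low, 14 windows are too few for a count of 0 to be informative. Among 21 windows of 16 target genes, 2 held the core (9.52%) and 1 the full element. The full element belongs to Syt2, the gene of the calcium sensor synaptotagmin 2, and was picked out after the values of Syt2 were seen. The window, chr1:134646362-134646661, is printed from the plus strand, with the element in capitals as its reverse complement, 167 bases before the start.

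Syt2 promoter: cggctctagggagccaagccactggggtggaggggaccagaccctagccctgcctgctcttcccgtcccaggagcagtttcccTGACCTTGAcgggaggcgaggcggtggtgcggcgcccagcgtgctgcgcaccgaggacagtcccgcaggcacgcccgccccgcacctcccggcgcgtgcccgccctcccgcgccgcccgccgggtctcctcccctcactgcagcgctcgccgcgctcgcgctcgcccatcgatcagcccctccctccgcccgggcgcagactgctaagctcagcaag

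Syt2 had a log2 fold change of -0.32 (SE 0.12) and was just outside the threshold (DESeq2 adjusted p = 0.0602). The match is a description of the sequence, and no binding was measured.

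Lastly, the genes whose values ran most like those of Esrrg over the 5 libraries were listed as a description. Among 11510 genes with a mean of at least 100 normalized counts, the 5 with the smallest root mean square difference in centred log2 normalized counts were Hapln1 (0.016), Ccdc92 (0.018), Brsk2 (0.022), Ccdc85c (0.022) and Fig4 (0.022). Their log2 fold changes, from -0.38 to -0.33, were close to that of Esrrg. With 5 libraries and this many genes, such likeness carries no test.

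Over the whole table, the libraries held 20635855 to 23105058 assigned counts, so that 3 counts correspond to 0.130 to 0.145 CPM, and the precision this gives covers counting error only. The number of calls over all genes depended on Flox replicate 4. Of 1306 genes called with all libraries, 497 had a fold change of at least 1.5, and without that library 78 genes were called.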

How the data were processed

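Poly(A)-selected, non-strand-specific libraries of pooled midbrain were sequenced, adapter-trimmed (Trim Galore, version 0.6.6), aligned with STAR and counted per gene with HTSeq-count by the authors. The study's methods name GRCm38 with GENCODE M24, while the submitters' processing notes name GRCm39, STAR version 2.7.9a and HTSeq version 0.11.3, and the table holds no coordinates, so that its build was not settled here. The deposited values are raw read counts, with no normalization. HTSeq's summary lines were left out. Of the total with these lines included, reads outside genes were 3.18% to 4.45% and ambiguous reads were 5.62% to 5.78%. Symbols were assigned to 52093 of 53700 gene IDs (97.0%) from GENCODE M21, and 52056 of these IDs carried a newer version in the table. Coordinates (GRCm38) and exon lengths come from M21.

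All gene rows were fitted with DESeq2 (version 1.42.0, R version 4.3.3), the study's tool, which replaces edgeR as the main test, with default size factors, a two-sided Wald test, independent filtering at 0.05 and Benjamini-Hochberg adjustment. edgeR (version 4.0.16), TMM and total-count library sizes, a filter (at least 10 counts in at least 2 libraries), no independent filtering, a replicate block and each library left out were alternatives. The fit was checked on simulated data with known changes. No 2 libraries agreed within counting noise.

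The 10 genes and the lists were chosen with earlier results of these data known. Named were the 10 genes, called genes of each list (at most 6 per direction), the 5 most abundant nuclear receptors, Th, Slc6a3, marker sums and the 5 genes most like Esrrg. Of the called target genes, 1 is counted but not reported here by name.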

Additional observations from a re-analysis of the deposited data

How the results depend on the processing

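Single libraries and the choice of test moved the counts of calls. The log2 fold change of Esrrg ran from -0.548 to -0.189 with each library left out, and it was -0.395 with the replicate block (libraries numbered 2 and 4 only, adjusted p = 0.182). The replicate numbers are not known to mark shared animals or days, and the deviations of same-numbered libraries correlated at 0.149 and 0.107 over 11522 genes. With 2 Flox libraries, whose deviations mirror each other, the pairs of numbers 2 with 4 gave -0.149 and -0.107 by construction. These values do not settle whether the numbers mark pairs. Of the 10 receptor and cofactor genes, 1 was called with the filter on low counts, and 0 to 1 with a library left out. Over all genes edgeR called 236, the replicate block 535, and leaving out a library 78 to 1590. Further cofactors had 1 call in edgeR and 0 to 2 with a library left out. Partner factors had 0 calls in edgeR (4 at an unadjusted p under 0.05), 0 with the replicate block (4 unadjusted) and 0 to 2 with a library left out. ERR target genes had 2 in edgeR and 1 to 7 with a library left out. Nuclear receptors had 0 in edgeR (9 unadjusted), 1 with the replicate block and 0 to 4 with a library left out. Small log2 fold changes turned sign in 4 genes, namely Ppargc1a with the replicate block (0.001), Pprc1 without Flox replicate 2 (range with a library left out -0.006 to 0.109), Ncoa1 without WT replicate 4 (-0.002 to 0.151) and Ncoa2 without Flox replicate 2 (-0.190 to 0.075). The other 6 genes kept their direction in all 11 alternatives, and the cause of these shifts was not tested.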
